A study of Mus musculus with 6 samples.

Results

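The genes described here encode high-voltage-activated calcium channels: 5 pore-forming subunits (Cacna1a, Cacna1b, Cacna1c, Cacna1d and Cacna1e) and 4 cytoplasmic beta subunits (Cacnb1, Cacnb2, Cacnb3 and Cacnb4). They were taken by symbol from the deposited table and make up 9 of its 21959 genes, each symbol standing in 1 row. Transcripts were measured by bulk RNA sequencing of paraventricular thalamus, a midline thalamic nucleus, in 3 libraries from mice with chronic constriction injury (CCI, replicates 1, 2 and 3), a neuropathic pain model in which a peripheral nerve is loosely ligated, and in 3 libraries from mice given no treatment (control, replicates 4, 5 and 6). All mice were wild type, and the labels give no age and no sham surgery. The design text counts 30 mice in each group without saying how they were allotted to libraries. The p-values below therefore reflect only how these 6 libraries scatter, and part of that scatter may be technical. All 9 genes had enough counts to be tested.

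High-voltage-activated calcium channels open on strong depolarisation and admit the calcium that triggers transmitter release, gates calcium-activated potassium channels and signals to the nucleus. The pore subunit sets the channel type. Cacna1a forms P/Q-type and Cacna1b N-type channels, the main presynaptic channels of central synapses, Cacna1e forms R-type channels, and Cacna1c and Cacna1d form the L-type channels of neuronal cell bodies and dendrites. A beta subunit binds the intracellular loop between the first and second repeats of the pore, brings the pore to the membrane and adjusts its gating. N-type channels of sensory neurons are a target of pain drugs, and the alpha2delta subunits that join these channels bind gabapentin.

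The pairing of the 2 gene classes is written in that loop. The coding stretch for its beta-binding motif was located by translating the protein-coding transcripts of GENCODE M21 (built on GRCm38) and searching for the motif's fixed residues, a glutamine pair, a glutamate, a leucine, a glycine-tyrosine pair and a tryptophan-isoleucine pair at set spacing. The 42 bases that encode it are shown 5′ to 3′ because they encode the site where a beta subunit binds. The 23 bases common to the 5 genes are in capitals. Part of this sharing was fixed by the search, which required those residues, and no binding was measured.
Cacna1a: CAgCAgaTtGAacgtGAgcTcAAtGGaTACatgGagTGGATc
Cacna1b: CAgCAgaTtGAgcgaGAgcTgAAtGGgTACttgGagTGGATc
Cacna1c: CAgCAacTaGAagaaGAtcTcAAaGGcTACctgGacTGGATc
Cacna1d: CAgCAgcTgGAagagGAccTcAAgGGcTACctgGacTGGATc
Cacna1e: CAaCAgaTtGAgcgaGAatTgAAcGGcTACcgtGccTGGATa
Cacna1a and Cacna1b shared 37 of these 42 bases (88.1%), as did the L-type pair Cacna1c and Cacna1d, and Cacna1e shared 27 to 31 with the others. The motif was in every coding transcript of Cacna1a, Cacna1c and Cacna1d, in 5 of 9 of Cacna1b and in 3 of 4 of Cacna1e. It was also found in Cacna1f (3 of 5) and Cacna1s (4 of 4), the remaining L-type pores. It was in 0 of the 11 coding transcripts of Cacna1g, 5 of Cacna1h and 4 of Cacna1i, which form low-voltage-activated T-type channels.

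The 9 genes are spread over 7 chromosomes, so none but the 3 on chromosome 2 share one. In the coordinates of the deposited table (GRCm39 per the submitters' processing notes), the presynaptic pore genes are Cacna1a (ENSMUSG00000034656) at chr8:85065268-85366875 on the plus strand and Cacna1b (ENSMUSG00000004113) at chr2:24493899-24653164 on the minus strand, and the R-type gene is Cacna1e (ENSMUSG00000004110) at chr1:154266477-154760247 on the minus strand. The L-type genes are Cacna1c (ENSMUSG00000051331) at chr6:118564201-119173851 on the minus strand and Cacna1d (ENSMUSG00000015968) at chr14:29761896-30213412 on the minus strand. The beta genes are Cacnb1 (ENSMUSG00000020882) at chr11:97892334-97913860 on the minus strand, Cacnb2 (ENSMUSG00000057914) at chr2:14607899-14992719 on the plus strand, Cacnb3 (ENSMUSG00000003352) at chr15:98528721-98542410 on the plus strand and Cacnb4 (ENSMUSG00000017412) at chr2:52318332-52566843 on the minus strand. Cacnb1 and Cacnb3 are compact genes, and the other 7 have long introns.

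The deposited read counts summed to 7989139 to 10529886 in CCI and to 12337448 to 15438268 in control, so the groups did not overlap in depth, and depth and group cannot be told apart. Summed markers of several cell types differed between groups as well. Counts of genes higher or lower are from the uncorrected edgeR fit described below, where 27.0% of all genes tested were higher in CCI and 25.3% lower. The pan-neuronal and astrocyte counts were near these shares. In CPM (each read count relative to its library total after TMM adjustment), the summed level of 10 pan-neuronal genes was 2133 to 2632 in CCI and 2636 to 2683 in control, with 2 genes higher and 2 lower. The 10 genes of paraventricular and midline thalamus summed to 1559 to 2216 in CCI and 5315 to 7958 in control, with 1 gene higher and 7 lower. The 10 tested hippocampal and cortical neuron genes summed to 189 to 221 in CCI and 68.8 to 94.4 in control, with 7 higher and 0 lower, and the tested GABAergic neuron genes, 9 of 10, to 125 to 483 and 62.4 to 104, with 7 higher and 0 lower. The 10 oligodendrocyte genes summed to 12384 to 16197 and 5390 to 12966 (8 higher, 0 lower), and the 10 astrocyte genes to 3636 to 4403 and 8227 to 11059 (2 higher, 3 lower). Habenula genes summed to 255 to 676 and 560 to 1950 (0 higher, 4 lower of 7), microglia genes to 144 to 196 and 221 to 287 (1 and 1 of 8), endothelial and mural genes to 261 to 319 and 324 to 420 (3 and 2 of 8) and choroid plexus genes to 2013 to 2877 and 284 to 4125 (1 and 0 of 5). No gene of these lists was without a count, Dlx2 was filtered out for low counts, and the part of these differences in the results below was not tested. In tissue, fewer cells of a type and less RNA per cell cannot be told apart. Control replicate 5 correlated less with the other controls (Pearson r of 0.973 and 0.976 on log2(FPKM + 1)) than they did with each other (0.995).

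The pore genes were higher in CCI and the beta genes were split. With edgeR's quasi-likelihood test, TMM scaling and p-values adjusted over 14259 genes by the method of Benjamini and Hochberg, 6 of the 9 members rose, all 5 pores and Cacnb2, and 3 (Cacnb1, Cacnb3 and Cacnb4) did not pass an adjusted p of 0.05. Over all genes tested 27.0% rose and 25.3% fell. No member fell in that test, and 0 fell at an unadjusted p under 0.05 or by DESeq2's Wald test. The median log2 fold change (CCI over control) was 0.97 over the 9 members, against 0.06 over all genes tested. It was 0.97 for the pores and 0.57 for the betas. In 7 members the 3 CCI libraries all lay above the 3 control libraries, as they did in 33.6% of all genes tested, and in 0 members they all lay below, as in 29.4%.

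**Figure D1:**
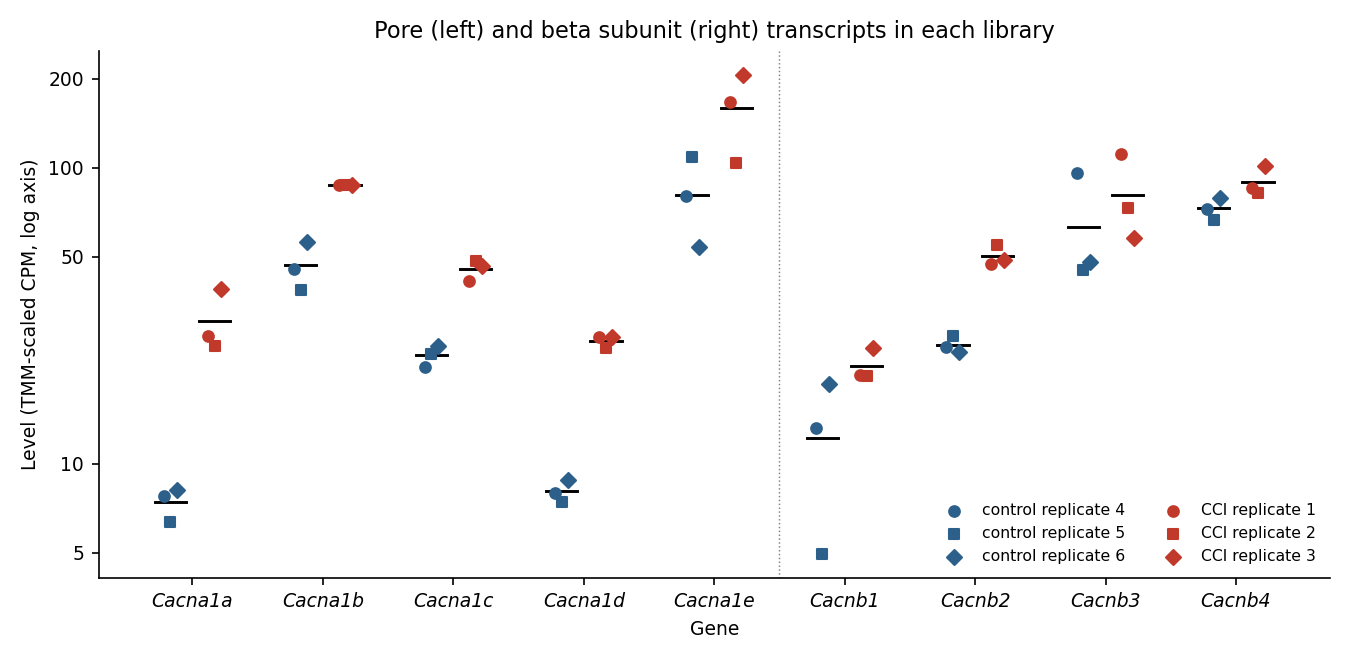
Level of each gene in each library, in TMM-scaled CPM on a log axis. Each point is a library, colour marks the group, symbol shape marks the replicate and the bar is the group mean. CCI and control points are separate for 7 genes and overlap for Cacna1e and Cacnb3.

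Among presynaptic pores, Cacna1a was at 27.1, 25.0 and 39.0 CPM in CCI replicates 1, 2 and 3 and at 7.76, 6.38 and 8.15 CPM in control replicates 4, 5 and 6. The groups were far apart, with CCI replicate 3 the highest library. Its log2 fold change of 2.02 ± 0.23 (SE) was the largest of the 9 members, a 4.07-fold rise (edgeR, adjusted p = 0.000330). These levels rest on 270 to 506 reads per CCI library and 54 to 109 per control library. Cacna1b was at 87.7, 87.2 and 87.1 CPM in CCI and at 45.4, 38.7 and 56.3 CPM in control. The CCI libraries were nearly equal (87.3 ± 0.303, SD, n = 3), the control libraries were more spread (46.8 ± 8.92), and the groups did not overlap. The rise was 0.90 ± 0.17 on the log2 scale (1.86-fold, edgeR, adjusted p = 0.00287). The R-type pore gene Cacna1e was at 166, 104 and 206 CPM in CCI and at 80.5, 109 and 53.9 CPM in control. CCI replicate 2 lay below control replicate 5, so the groups overlapped. Its log2 fold change of 0.97 ± 0.31 passed (edgeR, adjusted p = 0.0294), but it did not pass without CCI replicate 1 (0.93, adjusted p = 0.0779), CCI replicate 3 (0.73, adjusted p = 0.118), control replicate 4 (0.93, adjusted p = 0.0686) or control replicate 6 (0.73, adjusted p = 0.0887).

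The L-type pair had tight replicates in both groups. Cacna1d, whose channels open at more negative voltages than those of Cacna1c, was at 26.7, 24.6 and 26.7 CPM in CCI and at 7.94, 7.45 and 8.83 CPM in control. Both groups were compact and well apart, and the gene rose 3.21-fold (1.68 ± 0.18 on the log2 scale, edgeR, adjusted p = 0.000255). Cacna1c was at 41.5, 48.4 and 46.4 CPM in CCI and at 21.2, 23.5 and 25.0 CPM in control, again with no overlap. It rose 1.95-fold (0.97 ± 0.16, edgeR, adjusted p = 0.00140). Cacna1a, Cacna1b, Cacna1c and Cacna1d each passed without any one of the 6 libraries in turn. On chromosome 14, the table's interval of Cacna1d overlaps those of Dcp1a (by 11921 bp) and Chdh (by 589 bp) on the opposite strand, and that of Cacna1c on chromosome 6 overlaps Dcp1b (by 21638 bp). The strand setting of the counting is not given in the sources used here, so reads from these overlaps may be shared. Dcp1a had 432, 373 and 712 reads in CCI and 232, 315 and 289 in control, Chdh had 64, 85 and 75 against 19, 23 and 15, and Dcp1b had 153, 212 and 215 against 228, 134 and 226.

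Of the beta genes, Cacnb2, which is expressed in heart and brain, was at 47.2, 55.0 and 48.7 CPM in CCI and at 24.8, 27.1 and 23.9 CPM in control. The groups were separate by a wide margin, and the gene rose 1.99-fold (0.99 ± 0.15, edgeR, adjusted p = 0.00106), also without each library in turn. Cacnb4, the gene mutated in the epileptic lethargic mouse, was at 85.6, 82.3 and 101 CPM in CCI and at 72.5, 66.8 and 79.1 CPM in control. The groups did not overlap, but the gap between 79.1 and 82.3 CPM was smaller than the spread within either group, and the log2 fold change of 0.30 ± 0.15 did not pass (edgeR, adjusted p = 0.133). Cacnb1, which serves skeletal muscle as well as brain, was at 19.9, 19.8 and 24.5 CPM in CCI and at 13.2, 4.96 and 18.6 CPM in control. Control replicate 5 was low, with 42 reads, and the log2 fold change of 0.79 ± 0.39 did not pass (edgeR, adjusted p = 0.119). Without control replicate 6 it was 1.21 and passed (adjusted p = 0.0343), and without control replicate 5 it was 0.40. Cacnb3, a beta subunit abundant in brain, was at 111, 73.1 and 58.0 CPM in CCI and at 95.9, 45.0 and 48.0 CPM in control. Control replicate 4 lay above CCI replicates 2 and 3, and the log2 fold change of 0.35 ± 0.33 did not pass (edgeR, adjusted p = 0.395). It ranged from 0.05 (without CCI replicate 1) to 0.75 (without control replicate 4) and passed in none of the 6 fits that left out a library.

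Levels of different genes were compared per length, in the deposited FPKM (reads scaled to gene length and to the library total). On this total-count scale limma on log2(FPKM + 1) called 47.6% of all genes higher in CCI. The values below are therefore for the order within a group, not for comparing groups. Cacnb3 was the most abundant member in both groups, at 24.8 ± 8.66 FPKM in CCI and 13.2 ± 7.33 in control (SD, n = 3), followed by Cacnb4 (12.3 ± 1.42 and 6.68 ± 1.37). Cacna1b was the most abundant pore (10.8 ± 0.205 and 3.89 ± 1.14), then Cacna1e (7.75 ± 2.59 and 2.56 ± 0.622), Cacnb1 (5.82 ± 0.742 and 2.31 ± 1.43) and Cacnb2 (4.67 ± 0.307 and 1.55 ± 0.143). The bottom places were held in CCI by Cacna1a (3.04 ± 0.765), Cacna1c (2.55 ± 0.162) and Cacna1d (2.10 ± 0.129). In control, Cacna1c (0.867 ± 0.126) stood above Cacna1a (0.499 ± 0.124) and Cacna1d (0.437 ± 0.0885). Neighbours in this order whose libraries overlapped were Cacna1e and Cacnb1, and Cacna1a and Cacna1c, in CCI. In control they were Cacna1b and Cacna1e, Cacna1e and Cacnb1, Cacnb1 and Cacnb2, and Cacna1a and Cacna1d.

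The members are long genes, and fold changes in these libraries rose with gene length. The deposited Length is 25228 bp for Cacna1e, 21864 for Cacna1c, 15183 for Cacna1d, 13228 for Cacnb2, 12310 for Cacna1a, 9942 for Cacna1b and 8963 for Cacnb4, and 4529 for Cacnb1 and 4010 for Cacnb3. When the 14259 genes tested were cut into 10 equal bins by Length, 5 members were in bin 10, the longest (Cacna1a, Cacna1c, Cacna1d, Cacna1e and Cacnb2), 2 in bin 9 (Cacna1b and Cacnb4) and 2 in bin 5 (Cacnb1 and Cacnb3). In bin 10, 56.4% of genes rose and the median log2 fold change was 0.71, in bin 9 they were 43.1% and 0.43, and in bin 5, 21.5% and -0.10. Bin 1, the shortest genes, stood at 12.2% and -0.32. Across genes, which are not independent replicates, log2 fold change correlated with log2 Length at a Pearson r of 0.25, with log2 genomic span at 0.17 and with log2 mean CPM at -0.45. In 10 bins by mean CPM the median fell from 0.78 in the lowest bin to -0.92 in the highest. The members lay in CPM bins 5 (median 0.20) to 9 (median -0.57), and were not ranked within them. Set beside their own bin by Length, the log2 fold change of Cacna1a was above that of 92.6% of genes and that of Cacna1d above 86.5%. Cacna1c and Cacna1e were each above 61.4%, Cacnb2 above 63.0%, Cacna1b above 67.7%, Cacnb1 above 78.8%, Cacnb3 above 66.1% and Cacnb4 above 43.9%. By genomic span, 7 members were in the bin of the longest spans (159.3 kb for Cacna1b to 609.7 kb for Cacna1c), where 44.8% of genes rose, and Cacnb1 (21.5 kb) and Cacnb3 (13.7 kb) were not.

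**Figure D2:**
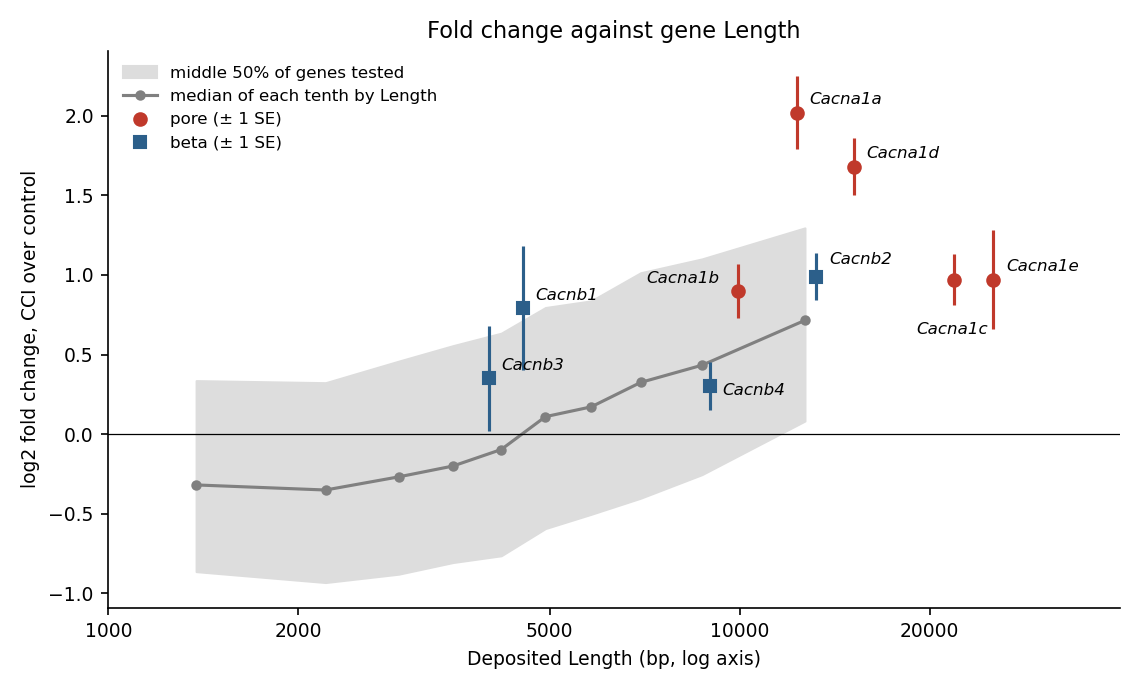
Log2 fold change (CCI over control, edgeR with TMM scaling) against the deposited Length in bp on a log axis. The grey line joins the medians of 10 equal bins of the genes tested, drawn at each bin's median Length, the band holds the middle 50% of genes, and points are pores (circles) and beta subunits (squares) with ± 1 SE. Cacna1a (2.02) and Cacna1d (1.68) stand above the band of the longest genes, whose median is 0.71.

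A refit with offsets that remove, library by library, a smooth trend of counts on log2 Length left 2 of the 9 members higher, Cacna1a and Cacna1d, and 0 lower, against 21.3% of all genes higher and 27.0% lower. Such a correction takes out any difference that goes with length, whatever its source. Cacna1a was at 1.39 ± 0.23 (edgeR, adjusted p = 0.00149) and Cacna1d at 0.93 ± 0.18 (adjusted p = 0.00324), and both passed without each library in turn. With the trend removed, the Cacna1a libraries were at 21.5, 20.7 and 30.8 CPM in CCI and 9.64, 7.70 and 10.4 in control, and those of Cacna1d at 20.2, 19.6 and 20.2 and 10.4, 9.23 and 11.9. Neither gene's groups overlapped. Those of Cacna1b (73.0, 74.8 and 72.0 against 53.5, 45.5 and 68.8), Cacnb1 and Cacnb2 did not overlap either, but these genes did not pass. How many of all genes were apart after this correction was not computed, so a count of members apart cannot be judged. Cacna1c, with a trend of 0.97 between groups at its Length, was at 28.9, 36.2 and 32.6 CPM in CCI and 30.3, 30.6 and 36.8 in control, where the groups overlapped and the log2 fold change was 0.00 ± 0.17 (edgeR, adjusted p = 0.997). Cacna1e was at -0.08 ± 0.27 (adjusted p = 0.829), Cacna1b at 0.39 ± 0.18 (adjusted p = 0.0998), Cacnb2 at 0.33 ± 0.15 (adjusted p = 0.106) and Cacnb4 at -0.15 ± 0.15 (adjusted p = 0.438). The short genes Cacnb1 (0.75 ± 0.37) and Cacnb3 (0.40 ± 0.31) moved little and did not pass.

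The members called depended on which gene property was corrected for. Offsets on genomic span left Cacna1a (1.50 ± 0.23), Cacna1d (1.14 ± 0.18) and Cacnb2 (0.47 ± 0.16, edgeR, adjusted p = 0.0333) higher, 3 of 9 against 22.7% of all genes. Offsets on Length and mean expression together left Cacna1a (0.98 ± 0.21, adjusted p = 0.00881) and Cacna1b (0.71 ± 0.17, adjusted p = 0.0134) higher, 2 of 9 against 18.2% of all genes, and Cacna1d at 0.44 ± 0.17 did not pass (edgeR, adjusted p = 0.0717). Offsets on coding length and GC content, chosen after the data were seen, left Cacnb2 (0.98 ± 0.14, adjusted p = 0.00107) and Cacna1d (0.64 ± 0.18, adjusted p = 0.0168) higher, 2 of 9 against 20.0% of genes. In that fit Cacna1a was at 0.49 ± 0.20 (edgeR, adjusted p = 0.0750), and Cacna1b was lower in CCI (-0.47 ± 0.16, adjusted p = 0.0431), where 25.4% of all genes were lower. The transcript with the longest coding sequence had a GC content of 58.4% for Cacna1a, 55.6% for Cacna1b, 49.8% for Cacna1d and 46.3% for Cacnb2. Over the uncorrected fit and these 4 corrections, Cacna1a and Cacna1d were each called higher in 4 of 5, Cacnb2 in 3, Cacna1b in 2, Cacna1c and Cacna1e in 1, and Cacnb1, Cacnb3 and Cacnb4 in 0. No member was called higher in all 5.

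**Figure D3:**
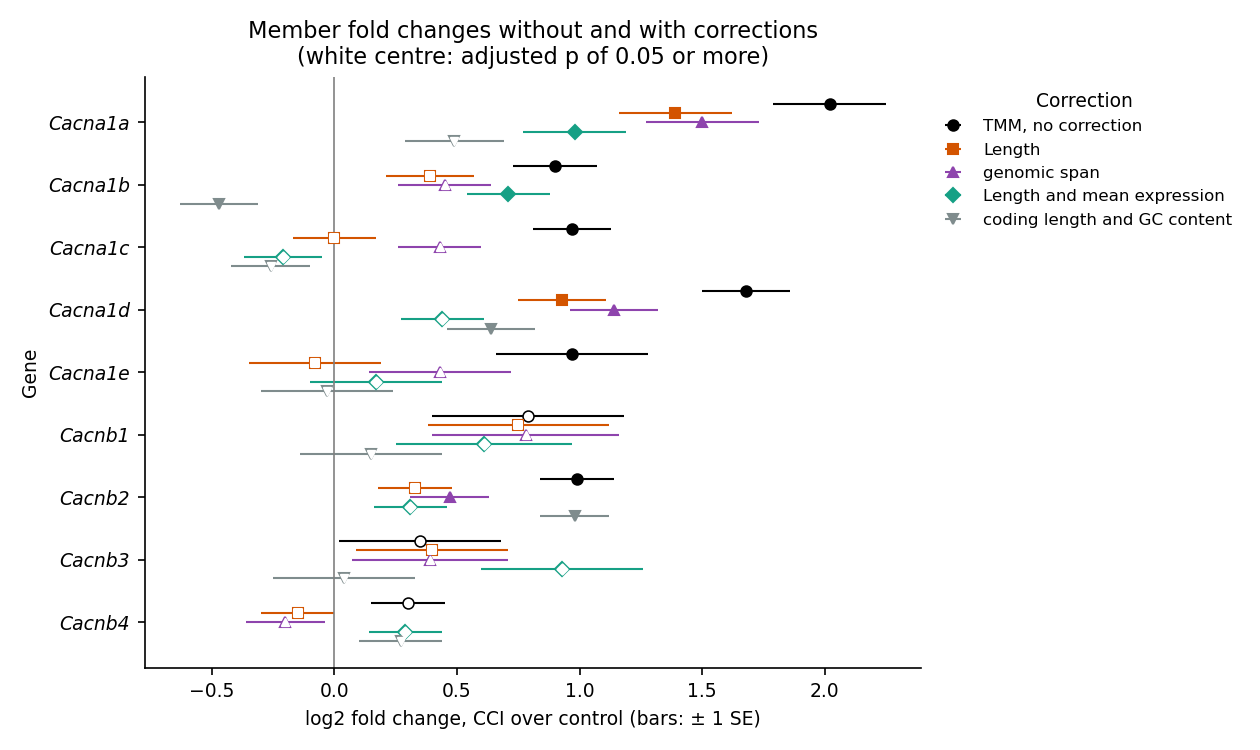
Log2 fold change (CCI over control) of each member with ± 1 SE in the fit without correction and in 4 fits with offsets for the gene properties named in the key. A white centre marks an adjusted p of 0.05 or more. With the Length offsets Cacna1c and Cacna1e go from 0.97 to near 0 and Cacna1a from 2.02 to 1.39, and Cacna1a is lowest, at 0.49, with offsets on coding length and GC content.

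Scaling moved all genes together. With total counts as the library size the median log2 fold change of all genes tested was 0.65, against 0.06 with TMM, and that of the members 1.56. In that fit 45.4% of all genes were higher and 9.72% lower, and 8 of 9 members were higher. Limma on log2(FPKM + 1) called 8 of 9 members higher, all but Cacnb3, where 47.6% of all genes were called higher. Cacnb4 was at 0.80 ± 0.18 (limma, adjusted p = 0.00722) and Cacnb1 at 1.15 ± 0.33 (adjusted p = 0.0200) on that scale, where Cacna1a was at 1.42 and Cacna1d at 1.11.

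The make-up of the pore and beta transcripts was compared next. Summed FPKM of the 5 pores was 26.5, 22.7 and 29.6 in CCI and 8.89, 7.07 and 8.82 in control, and that of the 4 betas 56.4, 43.5 and 42.9 against 33.1, 15.0 and 23.1. Both sums were higher in every CCI library than in any control library on this total-count scale. Divided by each library's TMM factor, a step chosen after the data were seen, the pore sums stayed apart (21.2, 18.7 and 24.0 against 9.88, 10.3 and 10.2). The beta sums then overlapped (45.1, 35.9 and 34.8 against 36.8, 21.8 and 26.7). Ratios within a library do not depend on such scaling. The log2 ratio of beta to pore FPKM was 0.86 ± 0.28 in CCI and 1.46 ± 0.41 in control (SD, n = 3), with overlapping groups (exact two-sided permutation p = 0.2), and the difference of -0.60 was -0.03 once the Length trend was removed. Cacna1a made up 10.4%, 10.8% and 13.2% of pore FPKM in CCI and 6.38%, 5.03% and 6.50% in control. Cacna1d made up 8.27%, 8.63% and 7.32% against 5.29%, 4.76% and 5.71%. The shares of these 2 genes did not overlap between groups, with or without the Length trend (corrected means 11.9% and 5.72% for Cacna1a, 8.03% and 5.25% for Cacna1d). The exact permutation p was 0.1, the smallest that 3 against 3 libraries allow, and 0.5 after adjustment over the 10 ratios compared, so no share could pass. The shares of Cacna1b (41.6% ± 5.13 in CCI and 46.5% ± 8.96 in control), Cacna1e (29.0% ± 6.31 and 31.8% ± 10.6) and Cacna1c (9.86% ± 1.69 and 10.5% ± 0.697) overlapped. Among betas every share overlapped, with Cacnb3 at 51.2% ± 9.82 in CCI and 53.8% ± 10.3 in control and Cacnb4 at 26.4% ± 5.63 and 29.7% ± 6.71.

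**Figure D4:**
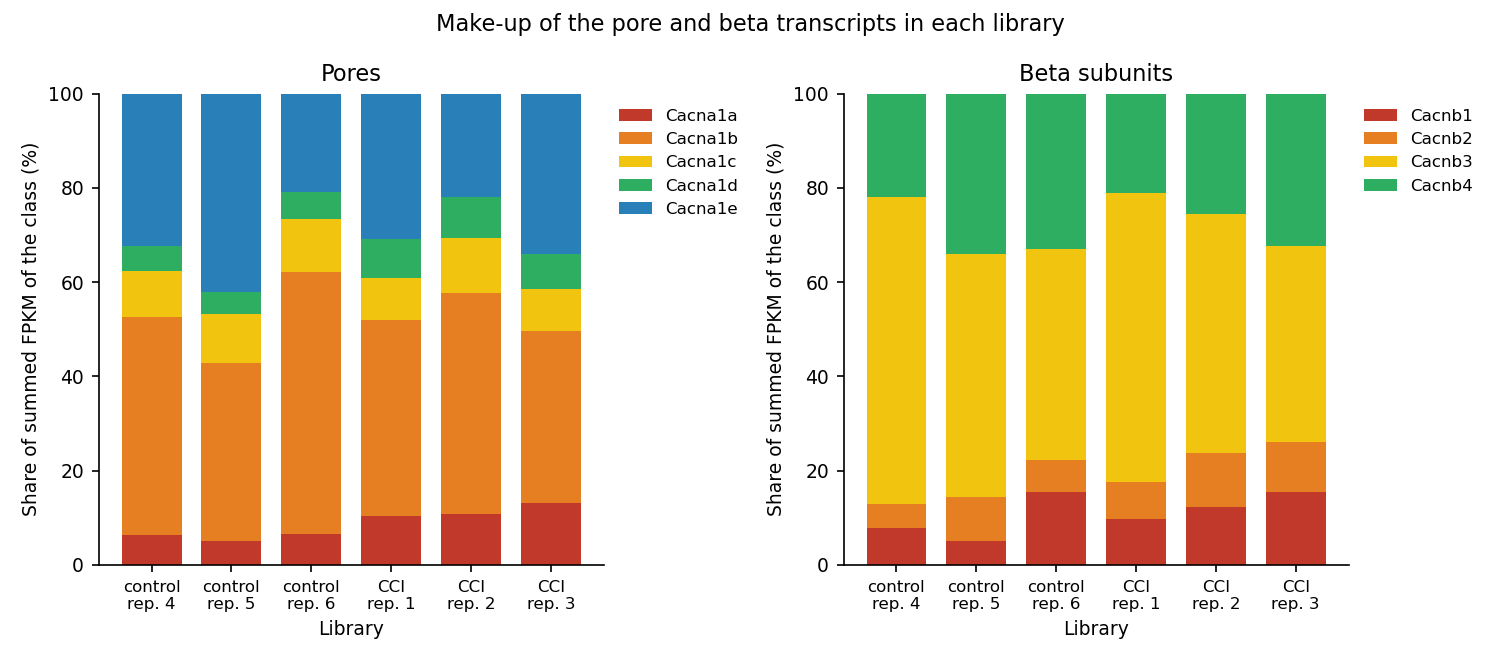
Share (%) of each gene in the summed FPKM of the 5 pores (left) and the 4 beta subunits (right), 1 stacked bar per library, control then CCI. The Cacna1a segment is 5.03% to 6.50% in control and 10.4% to 13.2% in CCI, while the beta segments overlap between groups.

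Other calcium channel subunits were read from the same fit, as counts beside the shares of all genes given above. Of the other pore genes, Cacna1f and Cacna1s were filtered out for low counts and all 3 T-type genes rose, Cacna1h by 2.17 ± 0.46 (log2), Cacna1i by 1.35 ± 0.21 and Cacna1g by 0.59 ± 0.20. Cacna1g was near the threshold (edgeR, adjusted p = 0.0325), and Cacna1h had a low mean of 1.74 CPM in control. With the Length offsets Cacna1h (1.67) and Cacna1i (0.84) passed and Cacna1g (0.07) did not. Offsets on Length and mean expression together left 0 of the 3 higher, at a median of 0.42. Dropping replicate 2 or 3 of CCI, or replicate 4 of control, left 2 pore genes of this list higher. The count was 3 without CCI replicate 1 and 4 without control replicate 6, where a gene filtered out above was counted. Without control replicate 5, 3 were higher and 1 was lower. The alpha2delta subunits, which carry pores to the surface, went both ways, with Cacna2d2 higher (1.71 ± 0.19), Cacna2d3 (-0.73 ± 0.20) and Cacna2d4 (-0.90 ± 0.20) lower and 1 of 4 not passing. Of 6 tested gamma subunit genes, several of which encode AMPA receptor auxiliary proteins, Cacng7 rose (1.61 ± 0.41), Cacng3 fell (-1.42 ± 0.20) and 4 did not pass, among them Cacng4 (0.25 ± 0.17). The alpha2delta list had 1 gene higher and 2 lower with the Length offsets too, but 2 higher and 0 lower with total counts as library size, where its median turned from -0.25 to 0.33. When CCI replicate 1, CCI replicate 2 or control replicate 6 was left out, 1 alpha2delta gene was lower.

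Genes whose proteins meet these channels were given by lists. Of 18 active zone and release genes 9 rose, 2 fell and 7 did not pass (median 0.41), where 27.0% of all genes rose and 25.3% fell. With the Length offsets 5 rose and 4 fell (median -0.01), where 21.3% of all genes rose and 27.0% fell. With total counts 13 rose and 1 fell, where 45.4% of all genes rose and 9.72% fell. The number that fell was 3 without control replicate 5 and 1 without any one of the other libraries. Erc1, a scaffold of the active zone, rose by 1.51 ± 0.21 and by 0.71 with the offsets, and the priming gene Unc13b (22746 bp) was at 1.11 ± 0.16 and at 0.12 (edgeR, adjusted p = 0.530). Snap25, a SNARE gene whose protein binds presynaptic calcium channels, fell from 5553 ± 1361 to 1472 ± 86.8 CPM (SD, n = 3). Of 17 tested channel regulators 1 rose, 5 fell and 11 did not pass (median -0.11), and with total counts 5 rose and 1 fell (median 0.43), where 45.4% of all genes rose and their median was 0.65. Stac2, an adaptor of L-type channels, rose by 2.50 ± 0.57, from 3.57, 2.84 and 4.49 CPM in control to 9.62, 11.1 and 41.3 in CCI, where replicate 3 stood far above the others. The calmodulin gene Calm2 (-1.59 ± 0.30) and the kinase A catalytic gene Prkaca (-1.04 ± 0.24) fell. Only 2 regulators fell without CCI replicate 1 or CCI replicate 3 and 3 without control replicate 6, while 3 rose when CCI replicate 2 or control replicate 5 was left out and 2 when control replicate 6 was.

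Calcium-activated potassium channels, which sit beside high-voltage-activated channels and open with them, had 2 of 6 genes higher and 0 lower, at a median of 0.39. Over all genes 27.0% were higher and 25.3% lower, so 2 of 6 higher is near the share of all genes. Only 1 of the 6 passed when CCI replicate 1, 2 or 3 or control replicate 6 was left out. With total counts 5 passed, where 45.4% of all genes were higher. Kcnma1, the large-conductance channel, was at 729, 550 and 381 CPM in CCI and 316, 207 and 224 in control (1.15 ± 0.28), Kcnn2 rose by 0.59 ± 0.17 and Kcnmb4 (0.62 ± 0.45) did not pass. With the Length offsets none of the 6 passed, Kcnma1 being at 0.33 (edgeR, adjusted p = 0.352). Of 10 calcium buffer and extrusion genes 5 rose, 2 fell and 3 did not pass, and with the Length offsets 4 rose and 4 fell. Over all genes the Length offsets left 21.3% higher and 27.0% lower. When CCI replicate 3 was left out, 3 rose. The exchanger gene Slc8a1 rose by 1.93 ± 0.18 and the pump gene Atp2b3 by 1.38 ± 0.19, at 1.06 and 1.28 with the offsets, while the buffer gene Calb1 fell by 1.60 ± 0.27 on the log2 scale.

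The start sites of the members were looked at in RefSeq windows of 300 bases (250 before and 50 after the start, GRCm38.p6, a different build from that of the table). Windows were found for 8 members, 16 in all, because some genes have several starts. The GC box GGGCGG or its reverse complement CCGCCC was in 8 of the 16 member windows and in 35.7% of all 32851 windows, and the core TGACG or CGTCA of the cyclic AMP response element was in 3 of 16 and 20.8%. The whole element TGACGTCA was in 0 of 16 and in 1.79% of all windows. A match is a description of letters and no binding was measured. The 2 pores with a single window are shown because they differ in these letters while both rose without correction, by 0.90 and 0.97. Motifs are in capitals (GC boxes and TGACG), and the Cacna1b window is 72.3% G and C with 35 CpG dinucleotides, the Cacna1e window 55.3% with 11. Cacna1b lies at chr2:24763103-24763402 and Cacna1e at chr1:154725871-154726170, both on the minus strand.
Cacna1b: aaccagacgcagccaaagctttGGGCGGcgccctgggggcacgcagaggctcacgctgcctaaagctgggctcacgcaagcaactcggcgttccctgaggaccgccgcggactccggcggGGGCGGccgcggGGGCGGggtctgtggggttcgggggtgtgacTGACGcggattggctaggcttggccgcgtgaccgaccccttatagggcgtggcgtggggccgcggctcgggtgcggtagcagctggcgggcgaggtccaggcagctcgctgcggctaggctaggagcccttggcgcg
Cacna1e: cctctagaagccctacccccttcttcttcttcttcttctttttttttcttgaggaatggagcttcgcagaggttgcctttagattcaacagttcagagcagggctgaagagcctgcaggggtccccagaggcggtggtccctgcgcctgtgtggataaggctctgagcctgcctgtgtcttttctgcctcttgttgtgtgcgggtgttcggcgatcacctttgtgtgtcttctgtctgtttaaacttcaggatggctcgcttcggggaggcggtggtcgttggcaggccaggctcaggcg
The Cacna1b window has 3 GC boxes and 1 TGACG, and the Cacna1e window has neither motif. The Cacna1e window ends at 154726170, below the gene's upstream end in the deposited coordinates (154760247). That of Cacna1b ends at 24763402, above its gene's upstream end (24653164). The builds differ and positions were not converted, but the Cacna1e window may be an internal start. The 2 windows may therefore not be like for like.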

How the data were processed

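The authors deposited 1 table with, per the file headers, read counts and FPKM of 21959 genes in 6 libraries, with Length and coordinates. Per the labels' protocols, poly-A RNA was primed with random oligonucleotides. Per the submitters' processing notes the assembly was GRCm39 and the tools included HISAT2 2.1.0 and fastp 0.22.0, StringTie 2.2.1, DESeq 1.38.3 and HTSeq 0.9.1, with no roles given. Dividing each count by Length and by its column's total gave back the authors' FPKM. Deposited counts were tested across all genes with edgeR 4.0.16 in R 4.3.3 (filterByExpr, TMM, quasi-likelihood F-test), adjusted by Benjamini and Hochberg at 0.05, with SE as the log2 fold change over the root of F. Corrections were per-library offsets from natural splines (5 degrees of freedom) of log2 CPM deviations on Length, genomic span, Length with mean CPM, or coding length with GC content from GENCODE M21 by Ensembl identifier (14220 of 14259 genes tested). Alternatives used limma 3.58.1, DESeq2 1.42.0, other scalings and filters, and each library left out. Shares used exact permutation tests (scipy 1.17.1). CCI libraries had TMM factors of 1.21 to 1.25, control libraries 0.686 to 0.900. The code was tested on simulated data. The members and lists were chosen with earlier results of these data known. The coding length and GC offsets, and Length offsets with a library left out, were added after the data were seen. All members were named, as were the 3 genes of each pathway list with the smallest unadjusted p.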

Additional observations from a re-analysis of the deposited data

How the results depend on the processing

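Of the 9 members, 5 or 6 were higher without each library in turn, where 20.0% to 31.5% of all genes were higher. With limma-voom, the DESeq2 Wald test, size factors from DESeq2, a stricter filter or none, 6 were higher, against 21.3% to 28.0%. With total counts, log2(FPKM + 1) or log2(FPKM + 0.1), 8 were higher, against 45.4% to 47.6%. Members higher numbered 2, 3, 2 and 2 with offsets on Length, genomic span, Length with mean expression, and coding length with GC content. The shares of all genes higher in these fits were 21.3%, 22.7%, 18.2% and 20.0%. The last of them also had 1 member lower, against 25.4% of all genes. With the Length offsets and a library left out, 2 to 4 members were higher, against 14.4% to 25.6% of all genes. Total counts, log2(FPKM + 1) and log2(FPKM + 0.1) gave 6477, 6785 and 6632 genes higher and 1386, 1374 and 1345 lower. Cacna1b turned to -0.47 on coding length with GC content. Cacna1c was at 0.00 (just below 0) on Length, -0.21 with mean expression added and -0.26 on coding length with GC content, and from -0.08 to 0.10 with Length offsets and a library left out (0.86 to 1.02 without offsets). Cacna1e was at -0.08 and -0.03 on Length and on coding length with GC content, and from -0.30 to 0.13 with a library left out (0.73 to 1.23 without offsets). Cacnb4 was at -0.15 and -0.20 on Length and genomic span, and from -0.23 to -0.07 with a library left out (0.20 to 0.36 without offsets). The beta to pore difference was -0.03 after the Length trend. The cause of these changes was not tested. Leaving out libraries gave 2881 to 4560 genes higher and 2630 to 4415 lower. No paired analysis was possible because the groups share no replicate number.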
